A study of Mus musculus with 16 samples.

Results

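The 10 genes described here are the Fos family (Fos, Fosb, Fosl1 and Fosl2), the Jun family (Jun, Junb and Jund) and 3 further transcription factor genes induced early by stimuli (Atf3, Egr1 and Nr4a1). They were taken by symbol from 55487 genes in the tables, and all 10 had enough counts to be tested. RNA was measured in 16 organoid lines of pancreatic ductal adenocarcinoma from 6 KPC mice, labelled as strain C57BL6/J. KPC is a genetically engineered mouse model of this cancer that relies on Cre recombinase in the pancreas, and the labels name neither the alleles nor the promoter that drives Cre, nor the age of the animals. Primary tumors gave 7 of the lines and metastases gave 9. Mouse 1 gave a tumor line (tumor replicate 1) and a liver metastasis line (metastasis replicate 1). Mice 2, 3 and 4 each gave a tumor line (tumor replicates 2, 3 and 4) and a peritoneal line (metastasis replicates 9, 2 and 3). Mouse 5 gave a tumor line (tumor replicate 5), a diaphragm line and a lung line (metastasis replicates 4 and 5). Mouse 6 gave tumor replicates 6 and 7 and lines from liver, diaphragm and ovary (metastasis replicates 6, 7 and 8). All lines shared 1 culture condition, domes of Matrigel under a medium with EGF, FGF-10, noggin, gastrin, R-spondin and A83-01, an inhibitor of the TGF-beta type I receptor. No line was an unstimulated or non-tumor control.

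Fos and Jun proteins are leucine zipper factors that pair to form AP-1, a complex that binds the sequence TGACTCA and its close relatives. Jun proteins can pair with each other or with Fos proteins, while Fos proteins need a Jun partner. Growth factors acting through the MAP kinase pathway induce many of these genes within minutes and without new protein synthesis, so they are called immediate early genes. Fos, Fosb and Egr1 messages are short-lived, whereas Fosl1 accumulates when signalling persists.

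The DNA upstream of RefSeq start sites of these genes is shown because the cAMP response element (CRE) and related sites there receive such signals. RefSeq start sites on GRCm38.p6 were available for 8 of the 10 genes, and Fosl1 and Egr1 were not among them. The 250 bases upstream of each start were searched on both strands for the core of the CRE, TGACG or CGTCA. This core is also contained in the full CRE, TGACGTCA. The windows of Fosb, Junb and Nr4a1, whose messages were higher in metastasis lines, and that of Fos, which did not pass the test, are printed 5′ to 3′ on the strand of the gene with the core in capitals. They lie at chr12:85473640-85473889 (Fos, plus strand), chr7:19310046-19310295 (Fosb, minus strand), chr8:84978749-84978998 (Junb, minus strand) and chr15:101266596-101266845 (Nr4a1, plus strand).
Fos: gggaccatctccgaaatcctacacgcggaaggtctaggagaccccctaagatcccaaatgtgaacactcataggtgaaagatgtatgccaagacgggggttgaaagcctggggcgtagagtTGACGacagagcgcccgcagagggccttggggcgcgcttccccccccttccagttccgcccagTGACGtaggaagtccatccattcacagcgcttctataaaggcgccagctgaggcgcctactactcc
Fosb: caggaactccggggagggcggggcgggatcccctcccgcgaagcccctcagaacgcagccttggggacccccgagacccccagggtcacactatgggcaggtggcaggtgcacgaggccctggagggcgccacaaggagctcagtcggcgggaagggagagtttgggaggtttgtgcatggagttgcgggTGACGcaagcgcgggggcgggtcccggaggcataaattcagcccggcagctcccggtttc
Junb: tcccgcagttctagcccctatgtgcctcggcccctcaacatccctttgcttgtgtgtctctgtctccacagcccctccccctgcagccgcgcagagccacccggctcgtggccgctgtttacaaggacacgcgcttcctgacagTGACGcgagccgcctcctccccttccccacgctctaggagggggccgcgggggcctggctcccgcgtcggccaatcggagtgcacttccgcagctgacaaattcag
Nr4a1: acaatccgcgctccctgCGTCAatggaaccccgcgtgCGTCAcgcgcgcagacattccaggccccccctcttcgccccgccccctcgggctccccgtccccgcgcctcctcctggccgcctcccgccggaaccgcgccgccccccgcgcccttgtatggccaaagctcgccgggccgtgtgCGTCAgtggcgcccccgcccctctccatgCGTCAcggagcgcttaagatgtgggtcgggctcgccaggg
The Nr4a1 window held 4 copies of the core, the first bases of which lie at -233, -213, -69 and -40 counted from the start site. The Fos window held 2 copies, at -129 and -66, and Fosb, Junb and Atf3 held 1 each, at -60, -106 and -7. Fosl2, Jun and Jund held none. The Jund window (chr8:70697489-70697738) ends before the start of the Jund gene counted here (70698949) and does not adjoin the measured transcript. The Atf3 window (chr1:191183334-191183583) lies inside the Atf3 gene counted here (191170296-191218039). The Fosl2 window (chr5:32136222-32136471) lies inside the Fosl2 gene (32135801-32157842), and the Nr4a1 window lies inside its gene too. The start sites used for these genes are therefore internal ones. Of 27025 promoter windows of the same length, 17.9% held at least 1 copy, 4.02% at least 2 and 0.152% at least 4. None of the 8 windows held the full CRE (1.62% of all windows), the AP-1 site TGACTCA or TGAGTCA (4.43%), or the CArG box bound by serum response factor (1.4%). A match describes the letters, the lack of one says only that they are not in this window, and no binding was measured.

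Total expected counts ran from 25737458 to 49965492 among tumor lines and from 24624420 to 47945773 in metastasis lines. Libraries differed in the counts taken by 3 genes that collect ribosomal RNA reads. Their share ran from 0.0463% to 29.9% (median 0.272%) among tumor lines and from 0.0185% to 72.7% (median 12.3%) in metastasis lines. The share was above 10% in 1 tumor line and 5 metastasis lines, so it moved with stage. The line with 72.7% was metastasis replicate 4, the diaphragm line of mouse 5, and the line with 29.9% was tumor replicate 2. Metastasis replicate 4 was the highest of all 16 lines for 8 of the 10 genes, the exceptions being Jund and Nr4a1. Stage results were therefore also computed without these 2 libraries.

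The lines carried an epithelial programme. The summed CPM (counts scaled to a common library total after TMM scaling) of Epcam, Cdh1, Krt8, Krt18 and Krt19 ran from 3657 to 5287 among tumor lines and from 3524 to 7145 in metastasis lines. Fibroblast markers were near 0, and none of 7 passed the count filter. Their summed CPM was 0.0385 to 0.230 among tumor lines and 0.100 to 0.775 in metastasis lines, with Lum at 0 in all 16 lines and Dcn at 0 in 15. The 4 endothelial markers summed to at most 0.392 CPM among tumor lines and 0.408 CPM among metastasis lines, with Emcn at 0 throughout. Immune markers summed to 1.51 to 4.55 CPM among tumor lines and 2.07 to 5.28 CPM among metastasis lines. Cd68 made up most of this sum, and the macrophage marker Adgre1 was at 0 in all 16 lines. Of 4 mesothelial markers, Msln, which pancreatic cancer cells also express, ran from 163.7 to 1130 CPM among tumor lines and from 308.1 to 752.7 CPM among metastasis lines, while Upk3b reached at most 0.710 CPM. Lrrn4 ran from 0.151 to 3.57 CPM (tumor) and from 0.214 to 6.29 CPM (metastasis), with a log2 fold change of 1.36 (SE 0.63) that did not pass the test (edgeR adjusted p = 0.151) and a higher mean in metastasis lines of 5 of 6 mice. Wt1 was at 0 in 9 lines and reached at most 0.313 CPM. The part of mesothelial cells in the stage results was not tested. In such bulk libraries, fewer cells with a message and less message per cell cannot be told apart.

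Levels were compared between genes in TPM, which accounts for transcript length, after the 3 ribosomal RNA genes were taken out of the total. Junb and Jund were the most abundant of the 10 in both stages. Junb averaged 67.5 TPM among tumor lines and 97.4 TPM in metastasis lines, and Jund 62.7 and 57.7 TPM. Junb lay above Jund in 4 of 7 tumor lines and in 9 of 9 metastasis lines. Fos averaged 11.9 TPM in tumor and 16.01 TPM in metastasis lines, and Fosl2 8.50 and 13.99 TPM, with Fos above Fosl2 in 7 of 7 tumor lines and 6 of 9 metastasis lines. Atf3 averaged 6.48 and 17.8 TPM, and its mean in metastasis lines (SD 14.7) lay above those of Fos and Fosl2. Line by line, Fosl2 lay above Atf3 in 7 of 7 tumor lines and 5 of 9 metastasis lines. Egr1 averaged 4.38 and 6.63 TPM, Jun 3.97 and 5.01 TPM, Fosl1 3.88 and 9.23 TPM, and Nr4a1 1.96 and 4.87 TPM. Fosb was the least abundant in every line, with mean levels of 0.102 and 0.430 TPM. Neighbours in the middle of this order were not separated among tumor lines, since Egr1 lay above Jun in 3 of 7 lines and Jun above Fosl1 in 4 of 7.

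Between stages, 4 of the 10 genes rose in metastasis lines (Fosl1, Fosb, Nr4a1 and Junb), none fell and 6 did not pass the test. Without the 2 libraries richest in ribosomal RNA none of the 4 passed, with edgeR adjusted p from 0.0513 (Fosl1) to 0.15 (Junb) and 5 of the 10 genes at an unadjusted p under 0.05. The test was edgeR's quasi-likelihood test with a term for each mouse, with Benjamini-Hochberg adjustment over 15573 genes and a threshold of 0.05. Over all genes tested, 16.5% passed in either direction, 6.59% as higher and 9.92% as lower in metastasis lines. The median log2 fold change of the 10 genes was 0.54, and that of all genes tested was -0.02. Estimates were above 0 for 8 genes and below 0 for Jun and Jund.

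**Figure D1:**
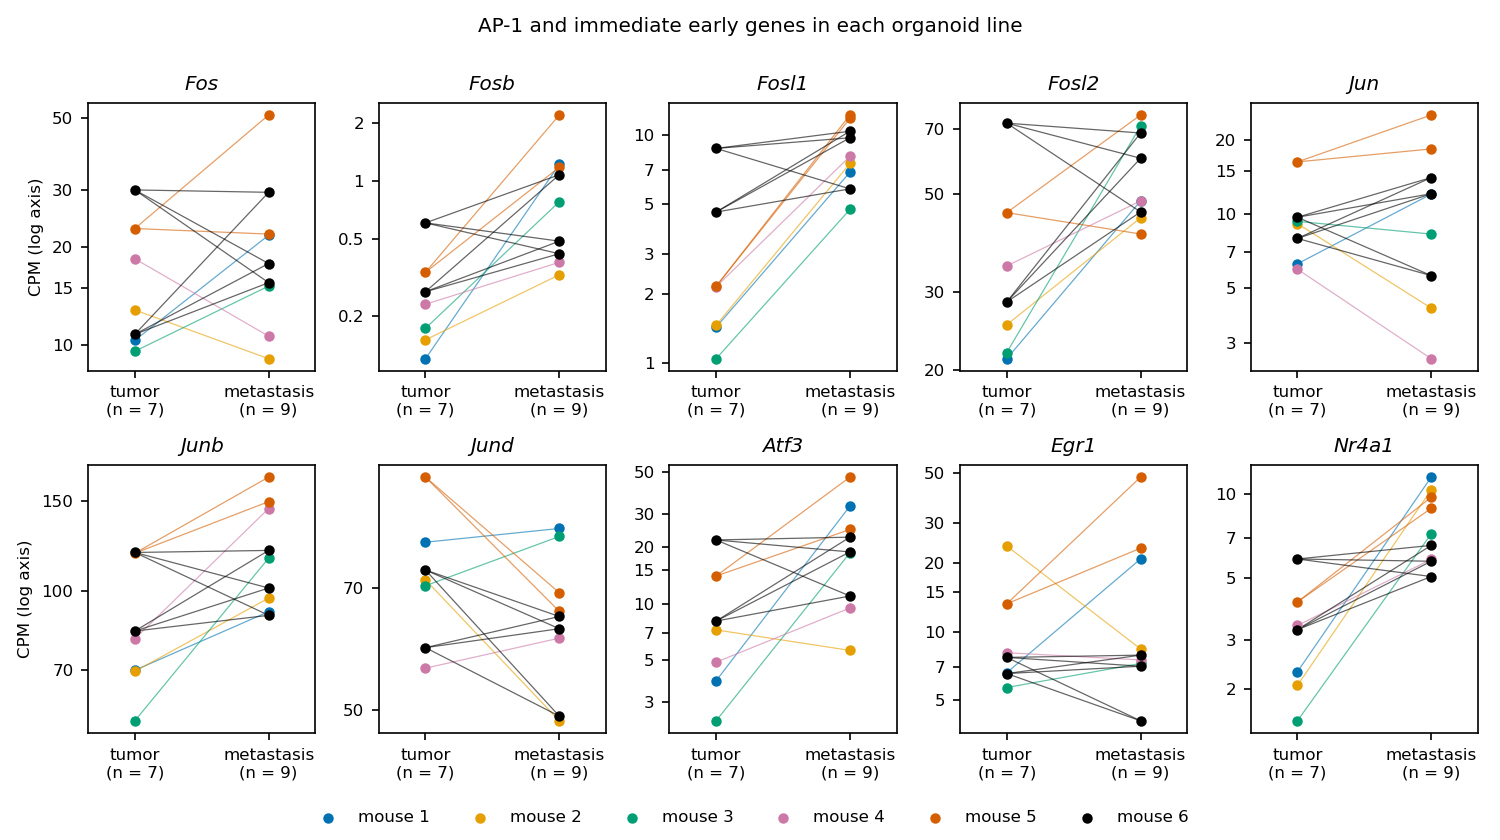
Level of each gene in each organoid line, in CPM on a log axis, for 7 tumor and 9 metastasis lines. Points are lines, colours are the 6 mice, and segments join the lines of a mouse across stages. Fosl1, Fosb, Junb and Nr4a1 segments mostly climb, while Jun, Fos and Egr1 segments go both ways.

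Among the Fos family, Fosl1 had the clearest stage difference. Fosl1 (chr19:5447547-5455946 on GRCm38, plus strand) encodes Fra-1, a Fos protein without the strong activation domain of c-Fos. In mice 1 to 5 its tumor lines had 1.43, 1.46, 1.04, 2.15 and 2.16 CPM, in that order. Their metastasis lines had 6.88 CPM in mouse 1, 7.51 in mouse 2, 4.72 in mouse 3, 8.08 in mouse 4, and 12.3 (diaphragm) and 11.9 (lung) in mouse 5. Mouse 6 was different in its tumor lines, which had 8.75 and 4.59 CPM, beside 10.4 (liver), 9.74 (diaphragm) and 5.81 (ovary) in its metastasis lines. The groups overlapped only through tumor replicate 6 of mouse 6, since the other 6 tumor lines lay below every metastasis line. The mean rose from 3.08 ± 2.76 CPM (SD, n = 7) to 8.59 ± 2.64 (SD, n = 9). The log2 fold change was 1.63 (SE 0.33), with an edgeR adjusted p of 0.00945, and the mean was higher in metastasis lines of 6 of 6 mice. The locus overlaps Ccdc85b on the opposite strand, and Ccdc85b also rose, from 12.8 to 20.6 CPM (log2 fold change 0.67, SE 0.13, edgeR adjusted p = 0.00746). The strand setting of the counting was not given in the sources used here, and the part of Ccdc85b in the Fosl1 counts was not tested.

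Fosb, which encodes FosB and shorter forms of it, rose from a very low level. Its tumor lines ran from 0.121 to 0.608 CPM (median 0.231) and its metastasis lines from 0.328 to 2.20 CPM (median 0.782). The groups overlapped through 2 tumor lines, and 5 metastasis lines lay above the highest tumor line. The log2 fold change was 1.48 (SE 0.41; edgeR adjusted p = 0.0311), higher in 6 of 6 mice. Fosb held 379 expected counts over all 16 lines, between 3 and 70 per line, so single lines are imprecise, and it passed in 16 of the 32 alternative fits that tested it. Fosb lies at chr7:19302696-19310051 on the minus strand.

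Fosl2, which encodes Fra-2, ran from 21.2 to 72.04 CPM among tumor lines (median 28.5) and from 40.6 to 75.2 CPM among metastasis lines (median 48.2). Tumor replicate 6 alone had 72.04 CPM, and 5 of 7 tumor lines lay below every metastasis line. The log2 fold change was 0.65 (SE 0.24) with the higher mean in metastasis lines of 6 of 6 mice, and it did not pass the test (edgeR adjusted p = 0.0793). Fos itself, the prototype of the family, ran from 9.59 to 30.02 CPM among tumor lines (median 12.8) and from 9.10 to 51.0 CPM among metastasis lines (median 17.8). All 7 tumor lines lay within the range of the metastasis lines. Its log2 fold change was 0.18 (SE 0.30; edgeR adjusted p = 0.703), above 0 in 4 of 6 mice.

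In the Jun family, Junb rose modestly, and Jun and Jund did not pass the test. Junb, which can oppose c-Jun at some promoters, ran from 55.6 to 119.1 CPM among tumor lines (median 80.6) and from 89.6 to 167.5 CPM among metastasis lines (median 116.1). The groups overlapped through tumor replicates 5 and 6, with 118.7 and 119.1 CPM. The mean rose from 85.3 ± 24.7 CPM (SD, n = 7) to 119.8 ± 28.4 (SD, n = 9), a log2 fold change of 0.44 (SE 0.14; edgeR adjusted p = 0.0464). The difference was above 0 in 6 of 6 mice, but only 0.05 in mouse 6. Junb (chr8:84974484-84978718, minus strand) overlaps the protein-coding gene Prdx2 on the plus strand. The limit on strand given for Fosl1 holds here too, and the part of Prdx2 in the Junb counts was not tested. The call on Junb is one of the weaker ones, since its adjusted p lay close to the threshold.

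Jun, which encodes c-Jun, ran from 5.98 to 16.3 CPM among tumor lines (median 9.16) and from 2.59 to 25.3 CPM among metastasis lines (median 12.1). The metastasis lines spread on both sides of the tumor lines. The log2 fold change was -0.04 (SE 0.28; edgeR adjusted p = 0.938), with 3 of 6 mice above 0. Jund, the steadily expressed member that is less dependent on stimuli, ran from 56.1 to 95.1 CPM among tumor lines (median 71.6) and from 48.5 to 82.5 CPM among metastasis lines (median 64.7). Its log2 fold change was -0.17 (SE 0.11; edgeR adjusted p = 0.306), above 0 in 3 of 6 mice. Antisense genes overlap both loci, Junos at Jun and Gm11175 at Jund, and the same limit on strand holds for them.

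Of the other 3 factors, Nr4a1 rose. Nr4a1 encodes the orphan nuclear receptor Nur77, and it lies at chr15:101254269-101274795 on the plus strand. Its tumor lines had 2.31, 2.06, 1.54, 3.39 and 4.11 CPM in mice 1 to 5, in that order, and 5.86 and 3.27 CPM in mouse 6. Its metastasis lines had 11.5 CPM in mouse 1, 10.4 in mouse 2, 7.22 in mouse 3, 5.84 in mouse 4, 8.91 and 9.76 in mouse 5, and 5.76, 6.56 and 5.07 in mouse 6. Only tumor replicate 6 lay within the range of the metastasis lines, 6 of which were above it. The mean rose from 3.22 ± 1.46 CPM (SD, n = 7) to 7.89 ± 2.32 (SD, n = 9). The log2 fold change was 1.27 (SE 0.29; edgeR adjusted p = 0.0158), higher in 6 of 6 mice. The window with 4 CRE cores printed above lies directly upstream of the transcript that made up most of the Nr4a1 message. The part of those cores in the Nr4a1 levels was not tested.

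Atf3, a stress-induced leucine zipper factor, ran from 2.39 to 21.8 CPM among tumor lines (median 7.25) and from 5.64 to 46.9 CPM among metastasis lines (median 18.8). Its estimate was large, with a log2 fold change of 1.10 (SE 0.44), but so was its spread, and it did not pass the test (edgeR adjusted p = 0.101). The mean was higher in metastasis lines of 5 of 6 mice, mouse 2 being the exception. The Atf3 locus overlaps Gm24748 on the opposite strand, and the same limit on strand holds for it. Egr1, a zinc finger factor induced through serum response factor, ran from 5.70 to 23.8 CPM among tumor lines (median 7.73) and from 4.07 to 47.8 CPM among metastasis lines (median 7.91). The medians were close. The highest values came from the 2 libraries richest in ribosomal RNA, metastasis replicate 4 (47.8 CPM) and tumor replicate 2 (23.8 CPM). Metastasis replicates 5 (23.3 CPM, share 4.16%) and 1 (20.9 CPM, share 2.19%) came next. Metastasis replicates 2, 3, 8 and 9, with shares from 12.3% to 18.5%, had 7.07 to 8.42 CPM. The log2 fold change of Egr1 was 0.22 (SE 0.34, edgeR adjusted p = 0.695), above 0 in 3 of 6 mice. Across lines, the Pearson correlation of log2 CPM of Egr1 with the log2 ribosomal RNA share was 0.86 in 7 tumor lines and 0.48 in 9 metastasis lines. Among tumor lines, tumor replicate 2 lay far from the rest, with a share of 29.9% beside at most 0.588%. The correlation without that line was not computed. These correlations describe lines that share mice, and the part of the ribosomal RNA share in the Egr1 values was not tested.

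With the 2 libraries richest in ribosomal RNA left out, none of the 10 genes passed the threshold in edgeR, and 5 had an unadjusted p under 0.05. In that fit 5.02% of 15817 genes passed. Mouse 2 added nothing to the stage difference there, since tumor replicate 2 is its only tumor line. The estimates moved little. Fosl1 had a log2 fold change of 1.48 (SE 0.37; edgeR adjusted p = 0.0513), Nr4a1 1.13 (SE 0.32; 0.0696), Fosb 1.41 (SE 0.45; 0.0887) and Junb 0.42 (SE 0.17; 0.15). Of the 6 genes not called with all lines, Atf3 had 1.22 (0.142), Fosl2 0.56 (0.241), Egr1 0.35 (0.434), Fos 0.15 (0.787), Jun 0.07 (0.9) and Jund -0.09 (0.656). With the ribosomal RNA share of each library as a covariate, 12.1% of genes passed. Fosl1 (log2 fold change 1.59, edgeR adjusted p = 0.021) and Nr4a1 (1.32, adjusted p = 0.0282) were among them. Fosb (1.27, edgeR adjusted p = 0.0635) and Junb (0.41, adjusted p = 0.0864) were not. With the log2 of that share as the covariate, an alternative chosen after seeing the data, only Fosl1 passed (1.56, edgeR adjusted p = 0.0445), and Nr4a1 had 1.24 (adjusted p = 0.0704).

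**Figure D2:**
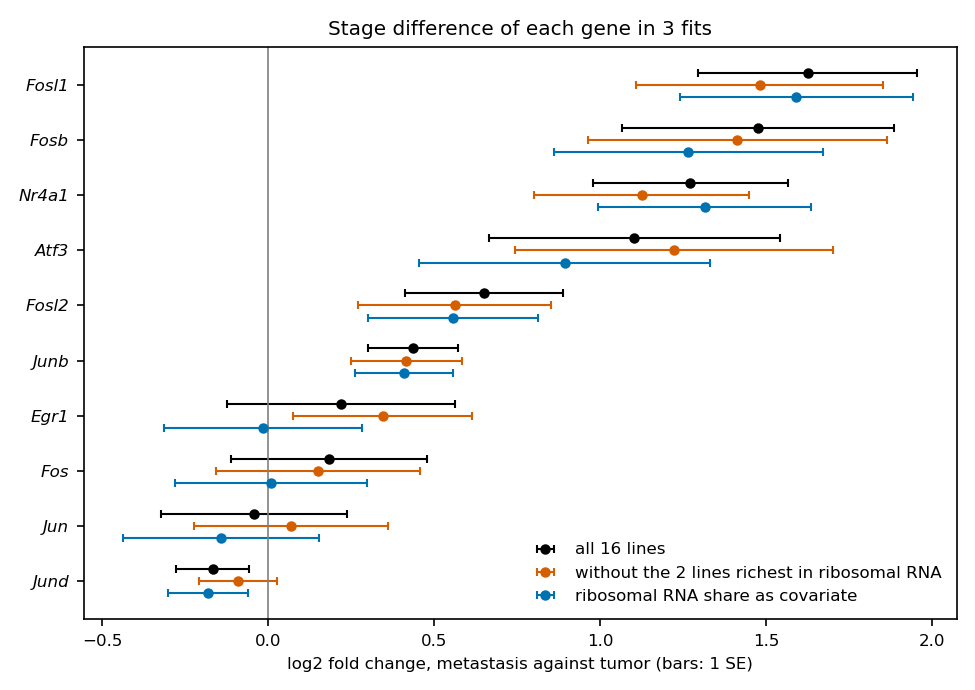
Log2 fold change of each gene in metastasis against tumor lines, with bars of 1 SE, in the fit of all 16 lines, without the 2 lines richest in ribosomal RNA, and with the ribosomal RNA share as a covariate. Fosl1 stays between 1.48 and 1.63 in the 3 fits, while Egr1 runs from -0.01 to 0.35.

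Single lines, and the mice they stand for, weighed on the count of genes called. Mice 1 to 4 gave 1 line per stage, and tumor replicate 5 is the only tumor line of mouse 5. Leaving out such a line takes its mouse out of the stage difference, because each mouse has its own term. Without tumor replicate 6, the highest tumor line for 7 of the 10 genes, 6 of the 10 passed, and Fosl2 (log2 fold change 0.90, edgeR adjusted p = 0.00695) and Atf3 (1.47, adjusted p = 0.0221) joined the 4. That fit called 24.7% of all genes tested. Fosl1 and Nr4a1 passed whichever single line was left out. Fosb did not pass without any 1 of tumor replicates 1, 2, 3, 5 and 7 or metastasis replicates 1, 2, 8 and 9. Junb passed only when metastasis replicate 6 or 8 or tumor replicate 6 was the line left out. Without both kinds of line of mouse 5, only Fosl1 passed (1.495, edgeR adjusted p = 0.0495), and Nr4a1 had 1.32 (adjusted p = 0.0604).

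The size of the stage difference varied among mice. For Fosl1 the difference in mean log2 CPM between metastasis and tumor lines was 2.23, 2.33, 2.13, 1.88 and 2.45 in mice 1 to 5, and 0.40 in mouse 6. Mouse 6 also had the smallest difference for Fosb (0.53), Nr4a1 (0.39) and Junb (0.05). Without mouse 6 the fold change of Fosl1 was 2.28 and that of Nr4a1 1.75 on the log2 scale, with edgeR adjusted p of 0.000574 and 0.00644. Mice 1 and 3 stood out for Atf3, with differences of 3.06 and 2.94, where mouse 2 had -0.36. Mouse 2 also went down for Fos (-0.49), Jun (-1.13), Jund (-0.56) and Egr1 (-1.496). Its only tumor line is tumor replicate 2, the library with a ribosomal RNA share of 29.9%. That line was the highest tumor line for Egr1 (23.8 CPM) and the median tumor line for Fos (12.8 CPM), Jun (9.16 CPM) and Jund (71.6 CPM). The metastasis line of mouse 2, metastasis replicate 9, was the lowest of all 16 lines for Fos (9.10 CPM) and Jund (48.5 CPM), and had 4.16 CPM of Jun. Mouse 4 went down for Fos (-0.79) and Jun (-1.19). Differences between mice in the stage effect were not tested.

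**Figure D3:**
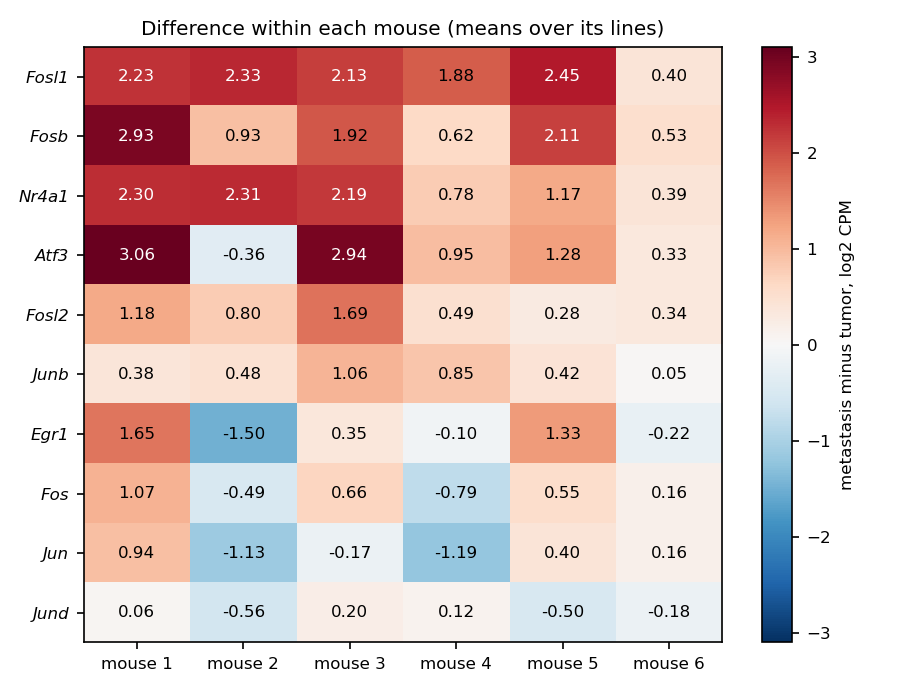
Metastasis minus tumor difference in mean log2 CPM of each gene in each of the 6 mice, printed in each cell and coloured from blue (lower in metastasis lines) to red (higher). Fosl1, Fosb, Nr4a1, Fosl2 and Junb are above 0 in all 6 mice, and the column of mouse 6 holds only values between -0.22 and 0.53.

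The make-up of each family was also described. Of the summed TPM of the 4 Fos family genes, Fos made up 50.0% ± 6.47 (SD, n = 7) among tumor lines and 38.0% ± 9.58 (SD, n = 9) among metastasis lines, and its share was lower in metastasis lines of all 6 mice. Fosl1 made up 14.5% ± 8.14 (SD, n = 7) and 24.8% ± 8.83 (SD, n = 9), higher in 5 of 6 mice. Fosl2 made up 35.1% ± 2.64 (SD, n = 7) and 36.1% ± 7.52 (SD, n = 9). In the Jun family Junb made up 49.9% ± 7.69 (SD, n = 7) and 60.5% ± 6.70 (SD, n = 9), higher in 6 of 6 mice. Jund made up 47.2% ± 7.54 (SD, n = 7) and 36.4% ± 6.80 (SD, n = 9), higher in 0 of 6 mice. Jun made up 2.92% and 3.04%. These shares were computed after the stage results were known and were not tested.

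**Figure D4:**
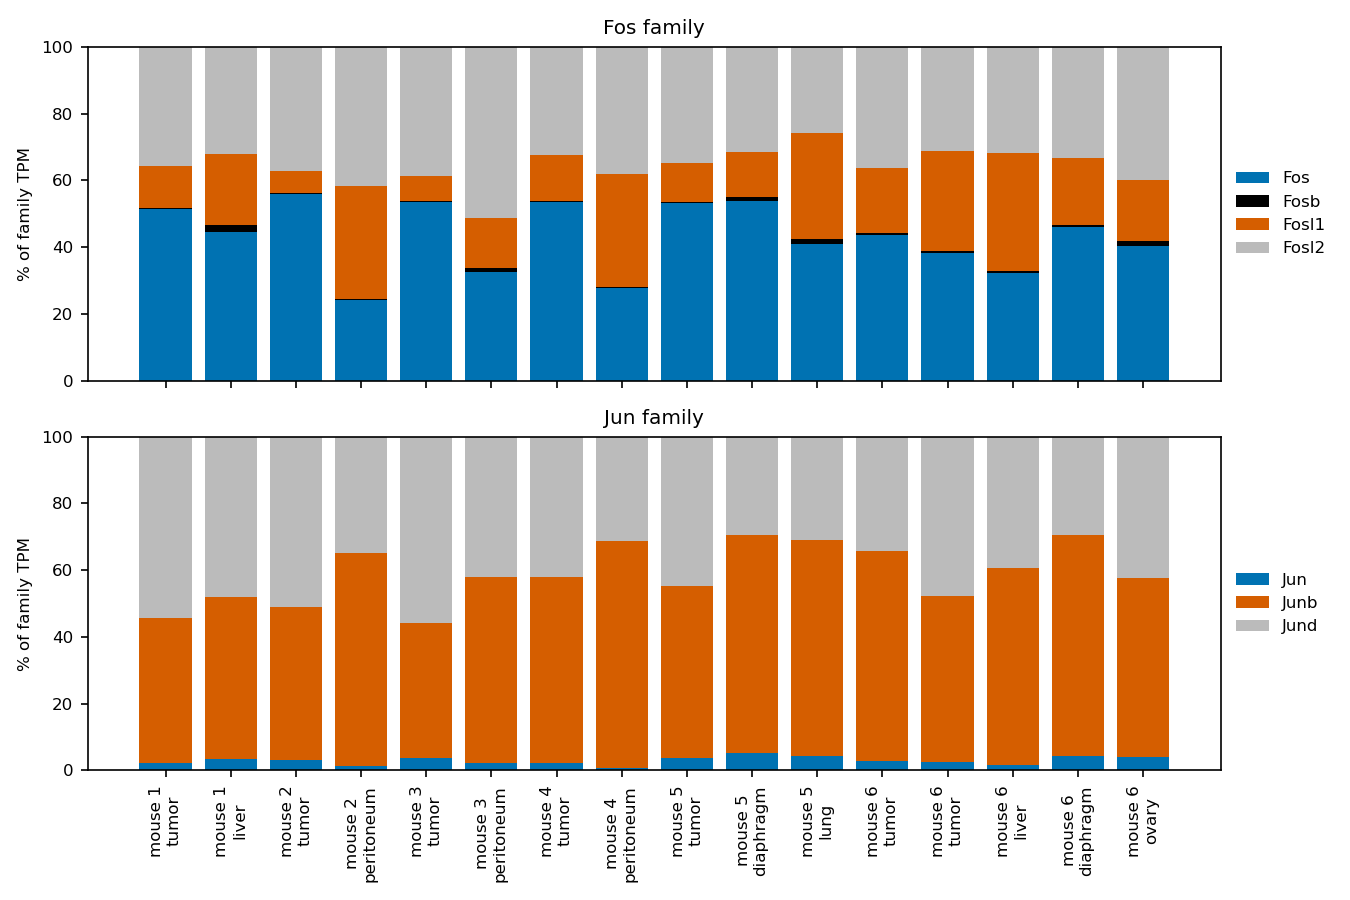
Share of each gene in the summed TPM of its family, in percent, for each of the 16 lines in order of mouse, with the Fos family above and the Jun family below. Fos takes 38.2% to 55.9% of the Fos family among tumor lines and 24.1% to 53.8% in metastasis lines, and Junb takes 40.4% to 63.0% and 48.5% to 68.2% of the Jun family.

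Levels of some of the genes were correlated among lines of the same stage. In the 7 tumor lines, Fos, Fosb, Fosl1, Fosl2, Junb, Atf3 and Nr4a1 had pairwise Pearson correlations of log2 CPM from 0.64 to 0.96 (21 pairs, median 0.88). Without tumor replicate 6 these ran from 0.22 to 0.94 (median 0.78). In the 9 metastasis lines the same pairs ran from -0.26 to 0.91 (median 0.32), and without metastasis replicate 4 from -0.59 to 0.88 (median 0.08). There, Fos, Fosb, Jun, Atf3 and Egr1 were the most alike, with correlations from 0.69 to 0.91 (10 pairs, median 0.83), or 0.37 to 0.88 (median 0.72) without metastasis replicate 4. In tumor lines those 10 pairs ran from -0.08 to 0.85 (median 0.44). Fosl1, Fosl2, Junb and Nr4a1 were correlated between 0.75 and 0.95 among tumor lines and between -0.26 and 0.60 (median 0.13) in metastasis lines, or -0.59 and 0.46 (median -0.09) without metastasis replicate 4. Jund stood apart from most of the others in tumor lines, with correlations from -0.34 to 0.25 except that with Jun (0.60). Egr1 did so too, with correlations in tumor lines from -0.17 (Fosl1) to 0.41 (Jun). The sets were picked after the correlations were seen, the lines share mice, and the difference between stages was not tested.

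**Figure D5:**
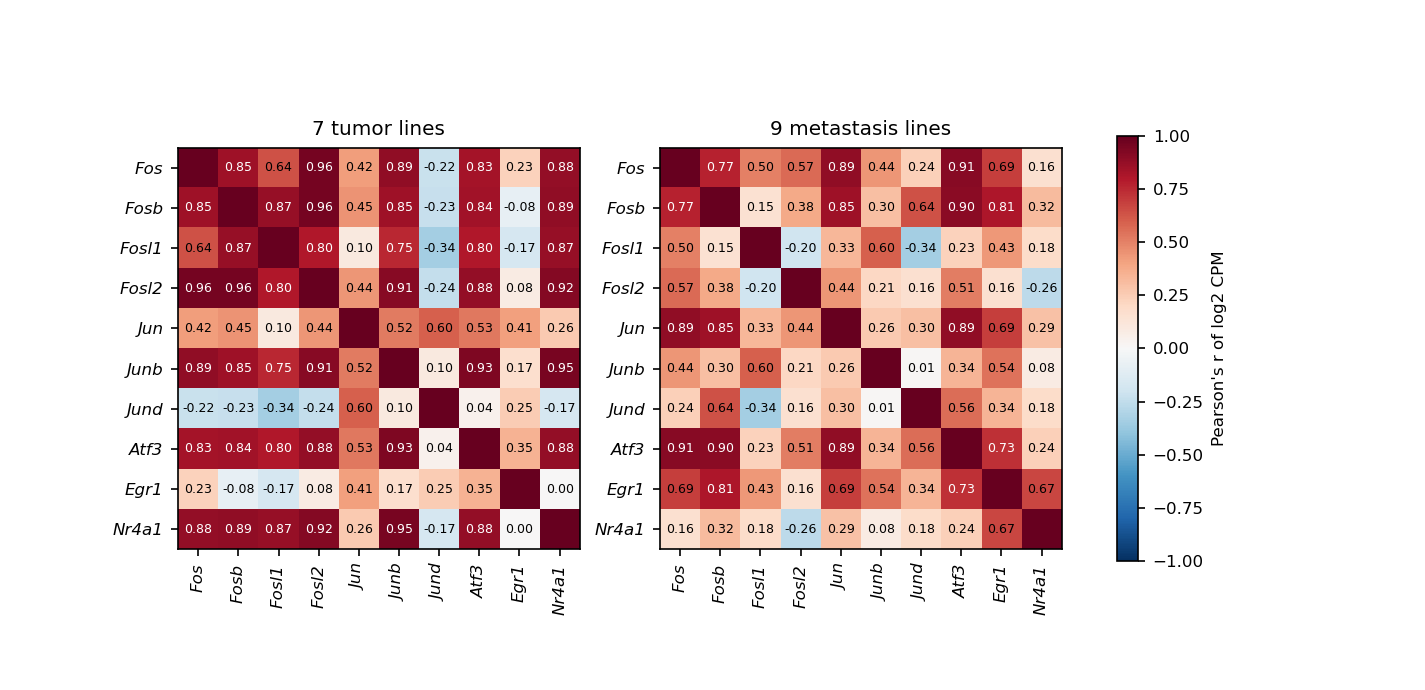
Pearson correlation of log2 CPM for each pair of the 10 genes, over 7 tumor lines on the left and 9 metastasis lines on the right, coloured from blue (-1) to red (1) with the value in each cell. Fosl1 and Nr4a1 correlate at 0.87 among tumor lines and at 0.18 in metastasis lines, and Fos and Jun at 0.42 and 0.89.

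No gene passed the test for a difference by metastatic site, edgeR's F test over peritoneum, liver, diaphragm, lung and ovary. Of 15573 genes, 0.00% passed, and 266 had an unadjusted p under 0.05. Lung and ovary had 1 line each and sites were split among mice, so the site test had little to work with. Jun had the lowest unadjusted p of the 10 genes (0.119). It ran from 2.59 to 8.31 CPM in 3 peritoneal lines and had 14.1 and 25.3 CPM in the diaphragm lines. Jun also had 5.6 and 12.1 CPM in liver, 18.4 CPM in lung and 12.1 CPM in ovary. Fos had 9.10 to 15.2 CPM in peritoneal lines and 29.5 and 51.0 CPM in diaphragm lines. It had 15.6 and 21.8 CPM in liver, 22.0 CPM in lung and 17.8 CPM in ovary. The higher diaphragm value of both genes came from metastasis replicate 4, the library with a ribosomal RNA share of 72.7%. Fosl1 ran from 4.72 to 8.08 CPM in peritoneal lines, and it had 6.88 and 10.4 CPM in liver, 9.74 and 12.3 CPM in diaphragm, 11.9 CPM in lung and 5.81 CPM in ovary.

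None of the 10 genes passed the test for a difference by mouse, an edgeR F test in which 0.154% of genes (24) passed and 2661 had an unadjusted p under 0.05. Egr1 (unadjusted p = 0.0096, edgeR adjusted p = 0.184), Jun (unadjusted p = 0.0147, adjusted p = 0.204) and Junb (unadjusted p = 0.0376, adjusted p = 0.267) had the lowest values. For all 3, mouse 5 held the highest metastasis line and the highest or second highest tumor line. That metastasis line was replicate 4, with a ribosomal RNA share of 72.7%. The same held for Fos, Fosb, Fosl2 and Atf3, whose unadjusted p in this F test ran from 0.11 (Fos) to 0.43 (Fosl2).

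No transcript share passed the test for a difference by stage. An exact sign-flip test on the 6 within-mouse differences cannot give a p below 0.03125. Over 18891 transcripts, that floor keeps every adjusted p above 0.05 unless most transcripts reach it. The test called 0.00% of the 18891. The smallest adjusted p was 0.387, with 1526 transcripts at the smallest possible p. The lack of calls therefore decides nothing. Of the 12 transcripts of these genes that were tested, none had an unadjusted p under 0.05. The lowest was that of the Egr1 pair (exact p = 0.25), in which the more abundant transcript made up 89.5% ± 2.6 (SD, n = 7) of the gene among tumor lines and 87.0% ± 2.9 (SD, n = 9) among metastasis lines. The coding transcript of Fos made up 87.6% ± 4.8 (SD, n = 7) and 88.2% ± 4.0 (SD, n = 9). For Fosl1, the transcript with a retained intron made up 29.3% ± 16.1 (SD, n = 7) and 23.9% ± 12.6 (SD, n = 9). The Nr4a1 transcript that starts directly downstream of the window printed above made up 77.0% ± 10.5 (SD, n = 7) and 79.7% ± 11.1 (SD, n = 9). Fosb had too few counts to be tested, so its full-length and shortened forms could not be compared.

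Other immediate early genes went both ways. Of 25 listed, 21 were tested, 4 rose and 5 fell, with a median log2 fold change of 0.36. Beside these counts, 6.59% of all genes tested rose and 9.92% fell. Klf2, a Krüppel-like factor, rose most, from 0.214 ± 0.160 CPM (SD, n = 7) to 1.28 ± 0.875 (SD, n = 9), a log2 fold change of 2.40 (SE 0.30; edgeR adjusted p = 0.00124). The matricellular genes Ccn1 and Ccn2, induced by serum response factor and by YAP, fell by 2.10 (SE 0.39; edgeR adjusted p = 0.00641) and by 1.49 (SE 0.29; adjusted p = 0.0078) on the log2 scale. Ccn1 went from 44.7 ± 24.2 CPM (SD, n = 7) to 11.3 ± 5.65 (SD, n = 9), lower in all 6 mice. Btg2, an antiproliferative gene, fell by 1.298 (SE 0.25; edgeR adjusted p = 0.00837). The remaining called genes, named after their values were seen, were Klf4, Arc and Dusp5, which rose, and Gadd45b and Ier5, which fell. Without the 2 libraries richest in ribosomal RNA, Klf2 (log2 fold change 2.38, edgeR adjusted p = 0.0129), Ccn1 (-2.14, adjusted p = 0.0363), Ccn2 (-1.27, 0.0464), Btg2 (-1.22, 0.0434) and Gadd45b (-0.73, 0.035) still passed, and Ier5 (0.0529), Klf4 (0.0577), Arc (0.0966) and Dusp5 (0.097) did not. Egr2, Egr3, Egr4 and Nr4a3, relatives of Egr1 and Nr4a1, were below the filter.

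Partners and regulators of AP-1 were counted from 3 lists, whose calls are to be read against the 16.5% of all genes called. Of 14 other leucine zipper partners, 11 were tested, none passed in edgeR and 2 had an unadjusted p under 0.05 (median log2 fold change 0.06). Of 14 kinases and promoter factors upstream of these genes, 1 rose and 1 fell (median 0.10). Mapk9, which encodes the kinase JNK2, fell by 0.40 (SE 0.12; edgeR adjusted p = 0.0404), and Elk4, a partner of serum response factor, rose by 0.23 (SE 0.07; adjusted p = 0.0483). Of 7 ligase and corepressor genes, 2 rose and none fell (median 0.05). These were Trib1, an adaptor of the ligase COP1 (log2 fold change 0.53, SE 0.12, edgeR adjusted p = 0.0126), and Fbxw7, a substrate receptor that recognises phosphorylated Jun (0.42, SE 0.12, adjusted p = 0.031). Without the 2 libraries richest in ribosomal RNA none of these 4 passed, with edgeR adjusted p of 0.112 for Mapk9, 0.142 for Elk4, 0.0539 for Trib1 and 0.121 for Fbxw7 (unadjusted p from 0.00324 to 0.0295).

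Of 15 genes known as AP-1 targets, 11 were tested, 1 rose and 1 fell (median log2 fold change -0.26). This is near the share over all genes tested, of which 6.59% rose and 9.92% fell. Hmga1, an architectural chromatin protein, rose from 247.3 ± 75.9 CPM (SD, n = 7) to 522.6 ± 131.8 (SD, n = 9), a log2 fold change of 1.06 (SE 0.20; edgeR adjusted p = 0.00745). Spp1, which encodes osteopontin, fell by 1.73 (SE 0.46; edgeR adjusted p = 0.0257). The matrix metalloproteinase genes Mmp3, Mmp9, Mmp10 and Mmp13, classical AP-1 targets, were below the filter. Of 7 heat shock genes, counted because handling of cells induces them together with immediate early genes, 2 rose and none fell (median 0.27). Those calls are to be read against the same 6.59% and 9.92%. Hspb1 rose by 1.13 (SE 0.31; edgeR adjusted p = 0.0295). Hspa1b rose by 0.59 (SE 0.13; adjusted p = 0.0127), which is uncertain because its near-identical copy Hspa1a shares its reads. Without the 2 libraries richest in ribosomal RNA, Hmga1 still passed (1.02, edgeR adjusted p = 0.0461), and Spp1 (0.0912), Hspb1 (0.113) and Hspa1b (0.0513) did not. Over the 6 lists, 17 genes were called with all lines, of which 6 were called without the 2 libraries and 17 kept their direction. Of all genes tested, those 2 fits called 16.5% and 5.02%. The part of handling in the values of the 10 genes was not tested.

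The genes whose pattern over the 16 lines was most like each of the 10 were ranked by the Pearson correlation of log2 CPM, as a description. Fosl1 was followed most closely of all, by Acan (0.983), Pcolce2 (0.961) and Dapk2 (0.952). Within tumor lines these values were 0.996, 0.967 and 0.970, and within metastasis lines 0.828, 0.627 and 0.445. Nr4a1 was nearest to Parp3 (0.928), Metrnl (0.920) and Pcolce2 (0.917), which within metastasis lines were 0.687, 0.534 and 0.455. Fos was nearest to Dusp10 (0.941), Dennd4c (0.917) and Ddit3 (0.910), and Fosb to Otop1 (0.944), Dip2a (0.935) and Tmem132c (0.925). Atf3 was also near Dip2a (0.916), followed by Smurf1 (0.907) and Arid5a (0.904). Fosl2 was nearest to Dap (0.927), Git2 (0.921) and Plekhm1 (0.915), and Junb was near Flt1 (0.895) and Dip2b (0.872). Jun was near Tpp1 (0.852) and Mycl (0.848). Jund was nearest to Irf1 (0.820), Scand1 (0.810) and Arhgef10l (0.805). Egr1 was nearest to Fbxo11 (0.899), Tulp4 (0.864) and Wdr60 (0.835), and the Fbxo11 value fell to 0.768 without the 2 libraries richest in ribosomal RNA. These lines share mice and library composition, and the nearest genes were selected for a high correlation among 9700 genes averaging at least 5 CPM.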

How the data were processed

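RNA was depleted of ribosomal RNA and sequenced as stranded total RNA libraries, per the labels' protocols. Per the submitters' processing notes, FastQC 0.11.8, STAR 2.6.0c and RSEM 1.3.1 were used with build GRCm38.p6. Per the file headers, the authors deposited expected counts and TPM per gene, and TPM and the percent of each isoform in its gene per transcript. The strand setting of counting was not given in the sources used here. Of 55487 genes, 55394 matched GENCODE M21, and the unmatched 93 held at most 0.00356% of a library.

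Expected counts were rounded and tested with edgeR 4.0.16 (R 4.3.3; TMM, filterByExpr by stage, terms for mouse and stage, quasi-likelihood test). P-values were adjusted by Benjamini-Hochberg over the 15573 genes tested (threshold 0.05), and single-gene adjusted p-values are edgeR's unless another tool is named. Lines were paired by the mouse label, so they come from the same animal. Labels do not say that lines of 1 mouse were independent cultures of separate lesions, and p-values partly measure spread between lines. CPM used TMM-scaled sizes, and log2 CPM a prior count of 2. Transcripts were tested if they averaged at least 10% of a gene with at least 20 counts in every line.

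Total counts were 24624420 to 49965492 per library. All 10 genes are described. From other lists up to 4 called genes with the lowest p, and for each of the 10 genes the 3 most correlated genes averaging at least 5 CPM, were named, except that some genes this rule named are not reported here. The 10 genes and all lists were chosen with earlier results of these data known. Scripts were tested on simulated data. Alternatives included DESeq2 1.42.0 and limma 3.58.1, on voom values and on log2(TPM + 1).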

Additional observations from a re-analysis of the deposited data

How the results depend on the processing

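Over all genes, 2571 passed the stage test. The count was 3968 with DESeq2, 877 with limma on log2(TPM + 1), which shifts the median of all genes to -0.14, 794 without the 2 libraries richest in ribosomal RNA and 800 with the log2 ribosomal RNA share as covariate. It was 1500, 1394, 1272, 1677, 766 and 2950 without mouse 1, 2, 3, 4, 5 and 6, and 1133 to 3910 when 1 line was left out. Of the 10 genes, 4 passed. The number was 6 with DESeq2 and with limma voom (the 4, Fosl2 and Atf3), 0 of 9 tested with limma on log2(TPM + 1), of which 3 had an unadjusted p under 0.05, 0 without the 2 libraries richest in ribosomal RNA, 2 and 1 with the ribosomal RNA share and its log2 as covariate. It was 2 without mouse 1, 2 or 3, 3 without mouse 4, 1 without mouse 5, 5 without mouse 6, when Fosl2 joined the 4 (edgeR adjusted p = 0.0368), and 2 to 6 when 1 line was left out. With no replicate block for mouse, 2219 genes and 3 of the 10 passed, the call on Junb being lost. Fosl1 passed in 32 of 34 fits, Nr4a1 in 30 of 34, Fosb in 16 of 32 and Junb in 11 of 34. None of the fits reversed these 4. The fits are not independent, since for mice 1 to 4 leaving out either line or the whole mouse gives nearly the same stage difference. Jun, not called in any fit, turned to 0.29 without the replicate block, 0.069 without the 2 libraries, 0.12 without mouse 2, 0.15 without mouse 4, and ran from -0.198 to 0.15 when 1 line was left out. Egr1, not called either, turned to -0.014 and -0.153 with the ribosomal RNA share and its log2 as covariate, -0.005 without mouse 1, and ran from -0.008 to 0.468 when 1 line was left out. The mouse test called 24 genes, 5 without mouse 6, and 4 to 370 when 1 line was left out. The site test called none with RLE size factors or with 1 line left out. The transcript test called none with shares from expected counts or a minimum of 5%, where the same floor on its p holds. The other settings were not run for the site and transcript tests. The causes of these changes were not tested. With 6 mice, lung and ovary at 1 line each, and 3 to 70 counts of Fosb per line, a gene that did not pass may still differ.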
